A study of Mus musculus with 46 samples.

Results

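White adipose tissue of female mice given PTP-r or vehicle was profiled in 12 of the 46 RNA sequencing libraries of the series, chosen by library titles that begin with WF. PTP-r is the code name of the injected agent in a study of a prohibitin-directed peptide of mixed chirality. The mice were wild-type C57Bl/6 females. Both groups were fed the high-fat diet SF013 from 7 weeks of age for 21 weeks and kept on a reversed light cycle. From week 16 they received subcutaneous injections for 5 weeks, either PBS as vehicle (6 libraries, titles 2, 3, 6, 7, 10 and 12) or PTP-r at 1 mg/kg/day (6 libraries, titles 1, 4, 5, 8, 9 and 11). The depot is not stated, so the groups are white fat of an unknown site, and the labels do not say that each library came from its own mouse. The p-values below therefore measure the spread between libraries. In bulk tissue, fewer cells of a type and less RNA per cell cannot be told apart.

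White fat stores triglyceride in adipocytes, which sit in a capillary network wrapped in basement membrane collagens and share the tissue with macrophages, other leukocytes and progenitor cells. In obesity the adipocytes secrete more leptin, and matrix genes and inflammatory genes usually rise with fat mass. Prohibitins, Phb and Phb2, form a ring complex in the inner mitochondrial membrane, and prohibitin on the surface of blood vessels in fat is the address that prohibitin-binding peptides were made to reach.

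Between 21386236 and 30652703 reads were counted on genes in each library. Adipocyte genes dominated every library: the 24 adipocyte identity genes summed to between 67140 and 100100 CPM (counts brought to a common library total after scaling) in PTP-r libraries, and to between 78530 and 99370 CPM in vehicle libraries. Adipoq, the adipocyte hormone adiponectin, ranged from 2876 to 4221 CPM in PTP-r libraries and from 3274 to 4542 CPM in vehicle libraries. All 12 libraries thus carried adipocyte RNA, though these genes alone do not tell white from other fat. Xist was present at 352.6 CPM or more in every library, which matches the female label.

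Several kinds of marker set some PTP-r libraries apart, and they touch the results that follow. Summed skeletal muscle markers (26 listed genes) reached 1908 CPM in PTP-r library 1, 607.8 CPM in library 5, 299.1 CPM in library 4 and 279.3 CPM in library 8, while PTP-r libraries 9 and 11 and all vehicle libraries lay between 113.0 and 210.6 CPM. Ckm, the creatine kinase of muscle, had a PTP-r median of 22.1 CPM and a highest vehicle value of 0.898 CPM. Summed markers of thermogenic adipocytes (16 listed genes) were 1013 CPM in PTP-r library 1 and 1092 CPM in library 4, against 242.9 to 317.3 CPM in the other 10 libraries. Summed pericyte and smooth muscle markers were 11490 CPM in PTP-r library 4 and 6249 CPM in library 9, against 1271 to 3273 CPM elsewhere. Ovary, oviduct and uterus markers summed to 540.2 CPM in PTP-r library 9, where Cyp11a1, the first enzyme of steroid synthesis, reached 205.5 CPM. In the other 11 libraries that sum stayed between 11.22 and 33.71 CPM. Single muscle genes showed a wider reach than the sums: of the 26 markers, 26 were above the highest vehicle value in PTP-r library 1, 25 in library 5, 24 in library 8, 18 in library 9, 11 in library 4 and 4 in library 11. Of the 16 thermogenic markers, 14 were above the highest vehicle value in each of PTP-r libraries 1 and 4. In each of libraries 5 and 8 there were 7, in library 9 there were 4 and in library 11 there were 3. By its sums on these 4 lists PTP-r library 11 lay within or below the vehicle range, and its values are given below beside the leading genes. Its sums did not on every list. Summed hepatocyte markers, of which Cyp2e1, an enzyme that fat expresses too, made up most (group means of 2767 CPM for PTP-r, 1741 CPM for vehicle), were 4385 CPM in library 11, the highest of the 12 libraries, 1456 to 3895 CPM in the other PTP-r libraries and 1017 to 2700 CPM in vehicle libraries. Summed epithelial markers were 168.0 CPM in PTP-r library 4 and 112.6 CPM in library 9, against 11.26 to 52.89 CPM elsewhere, with library 11 at 20.45 CPM.

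**Figure D1:**
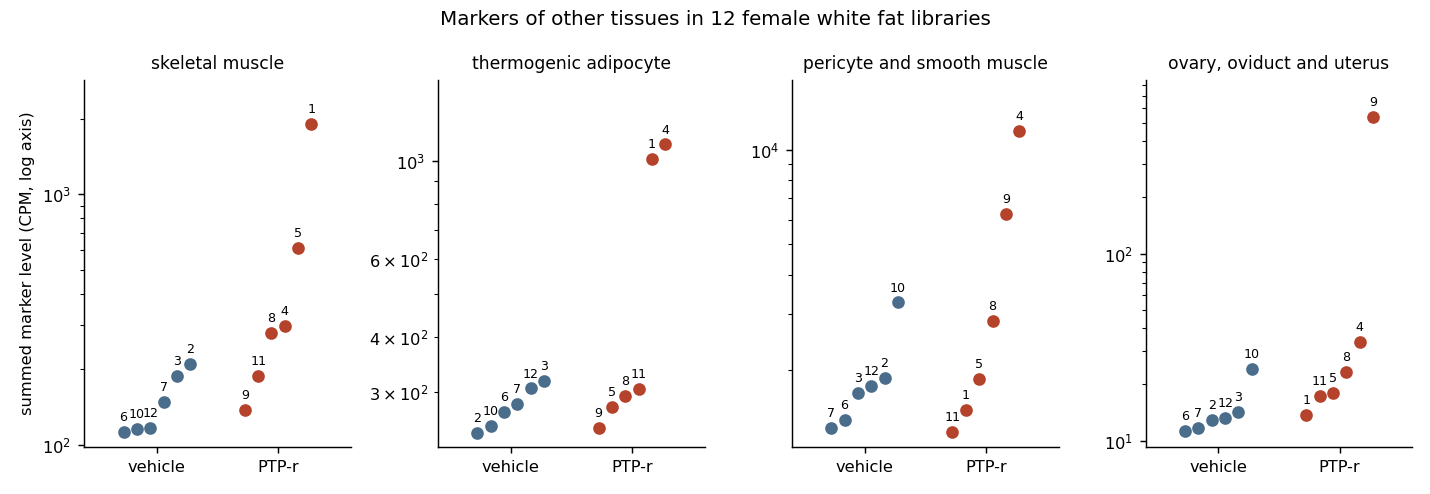
Summed levels of 4 marker lists (CPM, log axis) in the 6 vehicle and 6 PTP-r libraries of female white fat, each dot 1 library with its title number. PTP-r libraries 1 and 5 are highest in skeletal muscle markers, 1 and 4 in thermogenic markers, 4 and 9 in smooth muscle markers and 9 in ovary markers.

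In the main comparison, edgeR's quasi-likelihood test with Benjamini-Hochberg adjustment, 0 of 17765 genes passed an adjusted p of 0.05 (0%). The smallest adjusted p was 0.0515. At an unadjusted p under 0.05, 1419 genes were higher with PTP-r (7.99%) and 1490 lower (8.39%). The 6 values of each group did not overlap in 85 genes that were higher (0.478%) and 137 that were lower (0.771%). Leaving out 1 library gave 194 calls without PTP-r library 8, 67 without library 11, 21 without library 5, 7 without vehicle library 3 and 1 or 0 in the other cases. Other tools drew the line elsewhere. DESeq2 called 307 genes higher (1.73%) and 287 lower (1.62%) from the same counts, and limma voom with quality weights called 371 genes (2.09%) in both directions. They shared 285 genes, 48% of the DESeq2 calls and 76.8% of the voom calls, of which 114 were higher and 171 lower. The levels of each gene are therefore given first, with the adjusted p of both edgeR and DESeq2 for the genes described most fully. For a single gene, higher and lower describe its levels. In counts of list members they mean an unadjusted edgeR p under 0.05, unless another measure is named. Those counts are to be read against the shares over all genes, 7.99% higher and 8.39% lower.

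The 5 lower genes with the smallest p were Apln, Cxcr4, Gramd3, D1Ertd622e and Saa3. Apln (chrX:48025146-48034853, GRCm38) encodes apelin, a peptide ligand made by vessel tip cells and by adipocytes. Its level was 7.56 to 12.6 CPM in PTP-r libraries (median 10.6) and 16.98 to 28.02 CPM in vehicle libraries (median 22.2). Every PTP-r library lay below every vehicle library, and the log2 fold change was -1.15 (SE 0.20, edgeR adjusted p = 0.0515, DESeq2 adjusted p = 2.44e-05). Cxcr4 (chr1:128588199-128592293), the receptor for the chemokine CXCL12 on leukocytes and tip cells, was at 4.17 to 8.41 CPM in PTP-r libraries (median 6.65) and 11.4 to 18.4 CPM in vehicle libraries (median 14.5). Its groups did not overlap either (log2 -1.18, SE 0.21, edgeR adjusted p = 0.0515, DESeq2 adjusted p = 4.73e-05).

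Saa3 (chr7:46711998-46715700), serum amyloid A3, an acute phase protein that fat makes in inflammation, showed the largest fold among the 5 lower genes with the smallest p. It was at 4.04 to 7.55 CPM in PTP-r libraries (median 5.52) and at 8.18 to 60.9 CPM in vehicle libraries (median 22.02). The PTP-r libraries were all low and close together, while the vehicle libraries spread widely above them. The log2 fold change was -2.22 (SE 0.42, edgeR adjusted p = 0.0552, DESeq2 adjusted p = 2.44e-05). The other 2 of those 5 genes were Gramd3, at 13.4 to 20.98 CPM against 23.55 to 27.96 CPM, and D1Ertd622e, at 15.9 to 18.2 CPM against 20.2 to 24.5 CPM. Neither pair of ranges overlapped. PTP-r library 11 lay within or below the vehicle range in summed muscle, thermogenic, smooth muscle and ovary markers. In it Apln was at 10.6 CPM, Cxcr4 at 6.27 CPM and Saa3 at 4.95 CPM. Each value lay below the lowest vehicle library, which follows from the lack of overlap and is no separate check.

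In Saa3 and 2 further acute phase genes, Orm2 and Serpina3n, levels in fat were lower with PTP-r and levels in liver were not, as described further on. Their promoters, 250 bases before to 50 after the start from RefSeq on GRCm38.p6, are given to show the letters next to these genes. Capitals mark matches, on either strand, to a C/EBP motif (TTNNGCAA), an NF-kB motif (GGGNN directly followed by TTTCC) or a STAT motif (TTCNNNGAA).
Saa3 promoter, chr7:46715627-46715926, minus strand: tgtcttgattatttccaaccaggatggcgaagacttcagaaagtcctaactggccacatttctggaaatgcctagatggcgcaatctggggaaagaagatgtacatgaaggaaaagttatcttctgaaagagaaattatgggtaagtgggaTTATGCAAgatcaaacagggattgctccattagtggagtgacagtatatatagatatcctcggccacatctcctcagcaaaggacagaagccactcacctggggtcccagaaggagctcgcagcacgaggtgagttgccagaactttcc
Orm2 promoter, chr4:63362199-63362498, plus strand: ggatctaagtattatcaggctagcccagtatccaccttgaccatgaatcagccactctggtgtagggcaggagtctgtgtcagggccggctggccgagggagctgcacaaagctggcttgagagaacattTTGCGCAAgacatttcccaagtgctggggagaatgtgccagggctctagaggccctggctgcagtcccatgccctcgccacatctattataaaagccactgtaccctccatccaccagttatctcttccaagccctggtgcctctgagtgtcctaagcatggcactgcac
Serpina3n promoter, chr12:104406458-104406757, plus strand: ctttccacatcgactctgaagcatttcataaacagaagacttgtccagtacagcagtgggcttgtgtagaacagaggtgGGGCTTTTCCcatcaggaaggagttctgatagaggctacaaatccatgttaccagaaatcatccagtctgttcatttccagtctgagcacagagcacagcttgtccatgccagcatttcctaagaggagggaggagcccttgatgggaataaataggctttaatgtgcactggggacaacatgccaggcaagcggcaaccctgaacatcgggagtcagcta
The Saa3 and Orm2 windows each hold 1 C/EBP match, first base 152 and 131 of the window, and no match to the other motifs. The Serpina3n window holds 1 NF-kB match at base 80 and no other match. Of 32851 RefSeq promoters of this length, 10.8% hold the C/EBP motif, 1.63% the NF-kB motif and 8.3% the STAT motif.

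Of 20 acute phase genes tested, 4 were lower and 1 higher at an unadjusted p under 0.05 (over all genes 8.39% and 7.99%). The list's median log2 fold change was -0.23 against 0.01 over all genes. Serpina3n, a protease inhibitor, was at 319 to 510 CPM in PTP-r libraries (median 368) and 493 to 730 CPM in vehicle libraries (median 654), so the groups met only at their edges (log2 -0.67, SE 0.14, edgeR adjusted p = 0.0606, DESeq2 adjusted p = 9.06e-04). Lbp, which presents bacterial lipopolysaccharide to its receptor, was at 83.0 to 274 CPM against 186 to 394 CPM (log2 -0.81, SE 0.22, edgeR adjusted p = 0.0926, DESeq2 adjusted p = 0.0186). Orm2, an acid glycoprotein with close relatives that could share its reads, was at 0.931 to 2.24 CPM against 2.43 to 4.31 CPM with no overlap. The member that was higher was Cp, ceruloplasmin, with mean levels of 117 CPM and 79.9 CPM. DESeq2 called 3 members, all lower.

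Of 26 genes on the VEGF and angiogenic list, 5 were lower and 1 was higher at an unadjusted p under 0.05 (over all genes 8.39% and 7.99%). The list median was -0.06. Besides Apln, Esm1, a tip cell proteoglycan, was at 0.786 to 4.23 CPM in PTP-r libraries and 3.13 to 11.8 CPM in vehicle libraries (log2 -1.46, SE 0.39, edgeR adjusted p = 0.0853, DESeq2 adjusted p = 0.0124). Dll4, the Notch ligand of tip cells, was at 24.7 to 52.5 CPM against 49.7 to 67.6 CPM (log2 -0.65, SE 0.18, edgeR adjusted p = 0.101, DESeq2 adjusted p = 0.0284). The pair of Tie2 ligands differed in direction. Angpt2, which destabilizes vessels, was lower at 10.1 ± 1.86 CPM against 16.2 ± 3.48 CPM (mean ± SD, n = 6 each), and Angpt1, which stabilizes them, was higher at 10.8 ± 3.08 CPM against 4.83 ± 2.09 CPM. DESeq2 called 4 lower members and Angpt1 (DESeq2 adjusted p = 0.00227).

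Common endothelial genes overlapped between the groups. Of 24 general endothelial markers, 1 was lower at an unadjusted p under 0.05, the median was -0.10, and their sum was 2867 to 3859 CPM in PTP-r libraries and 3529 to 3914 CPM in vehicle libraries. Pecam1, a junction protein of all endothelium, was at 274.6 ± 47.6 CPM against 303.5 ± 31.8 CPM (edgeR adjusted p = 0.574, DESeq2 adjusted p = 0.567). Kdr, the main VEGF receptor, was at 199.8 ± 36.2 CPM against 236.9 ± 26.9 CPM (edgeR adjusted p = 0.342, DESeq2 adjusted p = 0.298), and Vegfa was at 320.8 ± 40.9 CPM against 329.9 ± 81.6 CPM. A pair of endothelial genes outside the lists stood out after their values were seen. Pcdh12, a protocadherin of endothelial junctions, was at 14.6 to 23.9 CPM in PTP-r libraries and 24.3 to 33.4 CPM in vehicle libraries, and Bcl6b, a transcriptional repressor of endothelium, was at 16.9 to 34.6 CPM against 37.8 to 52.4 CPM. Neither overlapped between the groups.

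Mural cell genes differed by kind. Of 14 pericyte and smooth muscle markers, 8 were higher and 2 lower at an unadjusted p under 0.05. Myh11, the myosin of smooth muscle, was at 103 to 3342 CPM in PTP-r libraries (median 321) and at 63.4 to 583 CPM in vehicle libraries (median 88.3), highest in PTP-r libraries 4 and 9. Rgs5, a marker of pericytes, was at 179 to 359 CPM against 308 to 512 CPM (log2 -0.47, SE 0.14, edgeR adjusted p = 0.115, DESeq2 adjusted p = 0.0377). Without PTP-r libraries 4 and 9 the list median was 0.02, against 0.98 with them.

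Matrix genes were the list with the most lower members. Of 28 collagen and matrix genes, 14 were lower and 1 was higher at an unadjusted p under 0.05, 3 did not overlap, 6 were called lower by DESeq2, and the median log2 fold change was -0.30. The shares over all genes were 8.39% lower, 7.99% higher, 0.771% lower without overlap and 1.62% called lower by DESeq2. The summed level was 17930 to 23290 CPM in PTP-r libraries and 20770 to 28830 CPM in vehicle libraries. Vehicle libraries 3 (20890 CPM) and 7 (20770 CPM) lay within the PTP-r range, and the other 4 vehicle libraries lay above it. These 2 were also the lowest vehicle libraries in summed chemokine (597.5 and 659.2 CPM) and acute phase genes (2848 and 2403 CPM). In nuclear respiratory chain (12730 and 11650 CPM) and mitochondrial DNA genes (64100 and 56390 CPM) they were the highest vehicle libraries. In summed MHC genes vehicle library 7 (7444 CPM) lay above library 2 (7087 CPM). The lists thus share part of their spread among vehicle libraries, and its cause was not tested.

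Col18a1, the basement membrane collagen that gives rise to endostatin, was at 172 to 253 CPM in PTP-r libraries (median 228.0) and 297 to 417 CPM in vehicle libraries (median 330.0). Its groups did not overlap (log2 -0.59, SE 0.12, edgeR adjusted p = 0.0579, DESeq2 adjusted p = 4.28e-04). Nid1, which links laminin to collagen IV, was at 989 to 1453 CPM against 1528 to 1911 CPM, and Hspg2, the basement membrane proteoglycan perlecan, was at 1001 to 1634 CPM against 1674 to 2107 CPM. Both lacked overlap, as did Lama4, a laminin of basement membranes, at 313.6 ± 21.9 CPM against 363.0 ± 12.2 CPM; Hspg2 is not on the list and was chosen after its values were seen. Sparc, a collagen-binding matrix protein that adipocytes secrete, was at 2945 ± 484 CPM against 4580 ± 983 CPM (log2 -0.64, SE 0.15, edgeR adjusted p = 0.0617, DESeq2 adjusted p = 0.00226). Collagens IV and VI were lower by similar amounts, with Col4a2 at log2 -0.47 (SE 0.14) and Col6a2 at log2 -0.64 (SE 0.17). Col1a1, the main fibrillar collagen, was at 436 to 1256 CPM against 519 to 1182 CPM (edgeR adjusted p = 0.814, DESeq2 adjusted p = 0.812). Adamts5, a protease that cuts matrix proteoglycans, was at 110 to 300 CPM in PTP-r libraries (median 224) and 276 to 447 CPM in vehicle libraries (median 422; log2 -0.92, SE 0.18, edgeR adjusted p = 0.0552, DESeq2 adjusted p = 2.43e-04).

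Of 30 chemokines and their receptors, 9 were lower and 0 higher at an unadjusted p under 0.05, with a median of -0.53, and DESeq2 called 3 of them. Ccr2, the receptor that brings monocytes into tissue, was at 13.1 to 38.4 CPM in PTP-r libraries (median 24.9) and 19.02 to 62.2 CPM in vehicle libraries (median 46.4; log2 -0.75, SE 0.25, edgeR adjusted p = 0.149, DESeq2 adjusted p = 0.0696). Its ligand Ccl2 was at 1.43 to 4.21 CPM against 2.07 to 8.24 CPM. Both pairs of ranges overlapped. Ccl24, an eosinophil chemokine, was at 7.03 ± 1.73 CPM against 10.97 ± 2.09 CPM.

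The summed macrophage markers (25 genes) were 892.2 to 1669 CPM in PTP-r libraries and 1159 to 2473 CPM in vehicle libraries. Of the 25, 4 were lower at an unadjusted p under 0.05 (over all genes 8.39%), with a list median of -0.43. Lyz2, lysozyme of macrophages and neutrophils, was at 284.8 ± 64.5 CPM against 485.8 ± 136.5 CPM (log2 -0.77, SE 0.27, edgeR adjusted p = 0.168, DESeq2 adjusted p = 0.0791). Among 11 dendritic cell genes 4 were lower, and the sum was 56.61 to 86.72 CPM against 82.33 to 116.3 CPM. Of 18 MHC and antigen presentation genes, 8 were lower and 0 higher. These included the class II genes Cd74, at 228 to 522 CPM in PTP-r libraries and 406 to 867 CPM in vehicle libraries (log2 -0.73, SE 0.23, edgeR adjusted p = 0.132, DESeq2 adjusted p = 0.0497), and H2-Ab1, at 97.4 to 239 CPM against 172 to 380 CPM. Of 16 genes of lipid-associated macrophages, which adipocytes and other cells express in part, 14 had a fitted fold below 0 and 2 above 0 (median -0.35), and 1 was lower at an unadjusted p under 0.05. Over all 17765 genes, 8537 had a fitted fold below 0 and 8.39% were lower at that p. The count of 1 does not exceed that share. Trem2, their receptor for lipids, had medians of 7.54 CPM and 7.56 CPM, and Mmp12, a macrophage elastase, ranged from 0.102 to 10.8 CPM against 0.626 to 53.6 CPM.

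**Figure D2:**
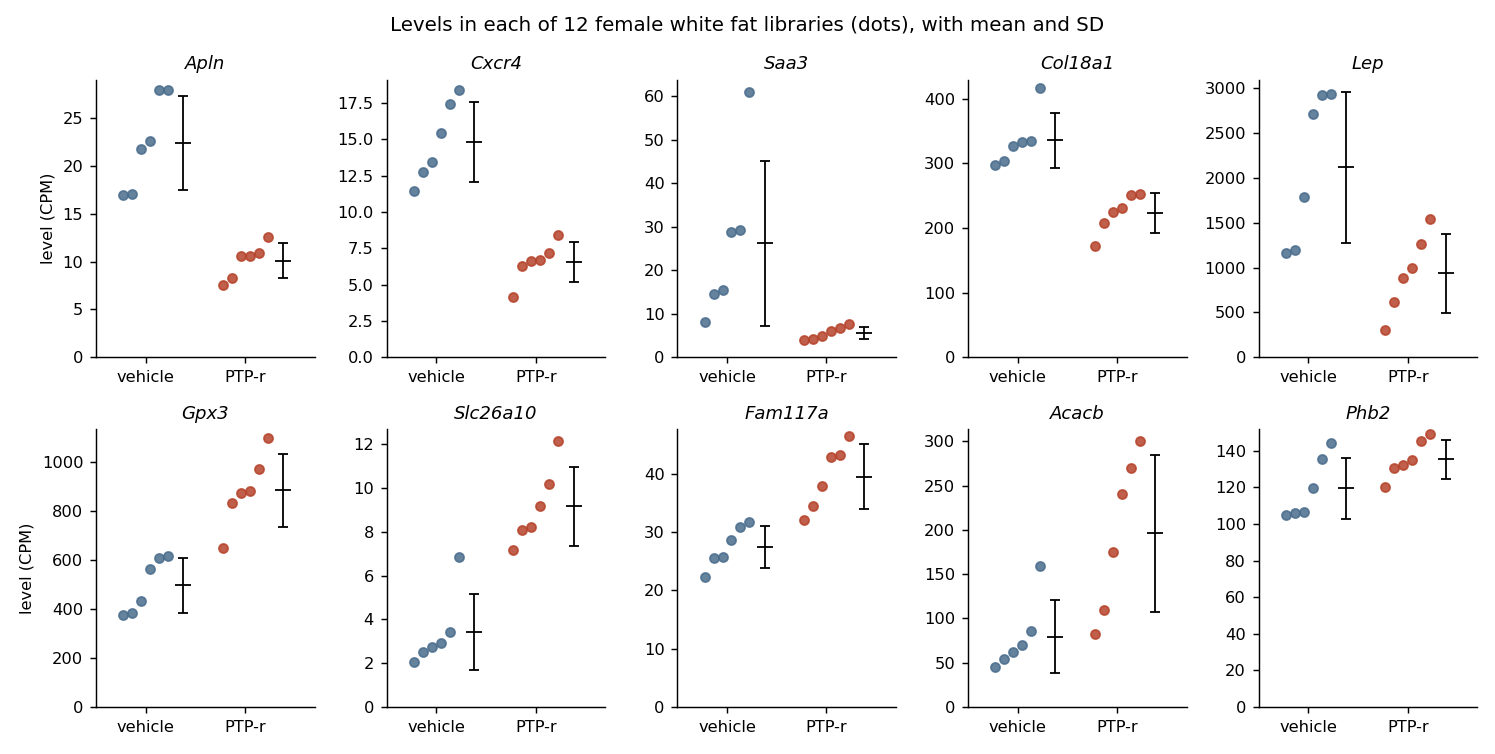
Level (CPM) of 10 genes in each of the 6 vehicle and 6 PTP-r libraries of female white fat, with the mean and SD beside the dots. Apln, Cxcr4, Saa3 and Col18a1 do not overlap on the lower side, Gpx3, Slc26a10 and Fam117a do not overlap on the higher side, and Lep, Acacb and Phb2 overlap.

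Adipocyte identity genes overlapped between the groups in all 24 cases, with a median of 0.01. At an unadjusted p under 0.05, 1 was higher and 3 lower (over all genes 7.99% and 8.39%). The lower members were Lep, Npr3 and Dgat2. Lep, leptin, the hormone that reports fat mass, was at 303 to 1542 CPM in PTP-r libraries (median 943) and 1162 to 2942 CPM in vehicle libraries (median 2248). The groups overlapped, with vehicle libraries 3 (1162 CPM) and 7 (1192 CPM) inside the PTP-r range (log2 -1.18, SE 0.30, edgeR adjusted p = 0.0808, DESeq2 adjusted p = 0.00665). Npr3, the clearance receptor for natriuretic peptides, was at 193 to 737 CPM against 665 to 1291 CPM (log2 -0.92, SE 0.24, edgeR adjusted p = 0.0822, DESeq2 adjusted p = 0.0105). Pparg, the master regulator of adipocytes, was at 218.4 ± 40.4 CPM against 220.0 ± 26.2 CPM, Plin1, the lipid droplet coat protein, was at 2920 ± 438 CPM against 2814 ± 436 CPM, and Fasn, fatty acid synthase, was at 2187 to 8955 CPM against 3242 to 15530 CPM. Without PTP-r libraries 4 and 9 the log2 fold change of Lep was -0.85.

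On the higher side, the 5 genes with the smallest p were Txlnb, Ucp1, Cidea, Fam117a and Slc26a10. Txlnb, a taxilin of muscle, was at 0.918 to 6.61 CPM against 0.530 to 1.23 CPM. Ucp1 and Cidea are genes of heat-producing adipocytes. Ucp1, which uncouples respiration to make heat, was at 394.5 CPM and 429.0 CPM in PTP-r libraries 1 and 4, at 3.89 CPM in library 5, at 4.00 CPM in library 8 and at or below 0.268 CPM in all others. Cidea followed it with a highest value of 102 CPM against a PTP-r median of 3.33 CPM. The fitted log2 fold change of Ucp1 was 10.6 (SE 1.88, edgeR adjusted p = 0.0515, DESeq2 adjusted p = 4.78e-11, voom adjusted p = 0.440), and 4.535 without PTP-r libraries 1 and 4. These folds rest on vehicle libraries near 0 and are not well bounded. Of 15 thermogenic adipocyte genes tested, 9 were higher, and 3 without PTP-r libraries 1 and 4, where 5.98% of all genes were higher. Of 21 skeletal muscle genes tested, 19 were higher, and 12 without PTP-r libraries 1, 4, 5 and 9. That last setting leaves PTP-r libraries 8 and 11 against the 6 vehicle libraries, and 3.78% of all genes were higher in it. Some genes of both lists were near 0 in vehicle libraries, with means of 0.051 CPM for Ttn, 0.056 CPM for Tcap and 0.084 CPM for Ucp1. Genes so low there could pass the expression filter only through libraries where they are high. Their being higher was thus partly set in advance, and these counts are no separate support.

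In the remaining pair of leading genes, PTP-r library 11 had Slc26a10 at 8.21 CPM and Fam117a at 46.4 CPM. Both values exceeded the highest vehicle library, which follows from the lack of overlap given next and is no separate check. Slc26a10, of an anion transporter family, was at 7.16 to 12.2 CPM in PTP-r libraries (median 8.71) and 2.04 to 6.85 CPM in vehicle libraries (median 2.82). All PTP-r libraries were above all vehicle libraries (log2 1.43, SE 0.29, edgeR adjusted p = 0.0589, DESeq2 adjusted p = 2.98e-04). Fam117a was at 32.1 to 46.4 CPM against 22.3 to 31.7 CPM, also without overlap (log2 0.52, SE 0.10, edgeR adjusted p = 0.0579, DESeq2 adjusted p = 9.49e-04). Gpx3, the secreted glutathione peroxidase, was at 649 to 1097 CPM in PTP-r libraries (median 878) and 376 to 617 CPM in vehicle libraries (median 498). Its groups did not overlap (log2 0.83, SE 0.19, edgeR adjusted p = 0.0610, DESeq2 adjusted p = 0.00183), and its log2 fold change was 0.78 without PTP-r libraries 1, 4, 5 and 9. Acacb, the acetyl-CoA carboxylase at mitochondria, was at 82.2 to 300.2 CPM against 45.4 to 159 CPM (log2 1.31, SE 0.30, edgeR adjusted p = 0.0622, DESeq2 adjusted p = 0.00226).

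Genes of mitochondrial energy use were higher in number. Of 24 fatty acid oxidation genes, 12 were higher and 1 lower at an unadjusted p under 0.05 (median 0.31), and of 57 nuclear respiratory chain genes 26 were higher and 0 lower (median 0.22). Acadvl, which starts the oxidation of long-chain fatty acids, was at 201 to 519 CPM in PTP-r libraries (median 259) and 168 to 267 CPM in vehicle libraries (median 194; log2 0.64, SE 0.19, edgeR adjusted p = 0.116, DESeq2 adjusted p = 0.0377). Cox7b, a subunit of cytochrome oxidase, was at 108 to 157 CPM against 99.1 to 120 CPM (log2 0.35, SE 0.09, edgeR adjusted p = 0.0822, DESeq2 adjusted p = 0.0134). Ppargc1a, a coactivator of mitochondrial genes, was at 3.67 to 8.60 CPM against 2.03 to 4.79 CPM. Of 13 genes on mitochondrial DNA, 5 were higher and the median was 0.40, and mt-Co1 was at 22390 ± 4756 CPM against 16910 ± 4529 CPM.

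PTP-r libraries 1 and 4 were also the highest in the summed fatty acid oxidation and respiratory chain genes. Respiratory chain genes summed to 13880 CPM in PTP-r library 1 and 13720 CPM in library 4, against 9279 to 12820 CPM in the other PTP-r libraries and 8912 to 12730 CPM in vehicle libraries. Without PTP-r libraries 1 and 4, 2 respiratory chain genes and 0 fatty acid oxidation genes were higher at an unadjusted p under 0.05, where 5.98% of all genes were higher and 5.97% lower. Their medians were then 0.12 and 0.08, and 0 genes on mitochondrial DNA were higher (median 0.32). What muscle or thermogenic tissue adds to these genes was not tested beyond these values. Without PTP-r libraries 1, 4, 5 and 9, 14 respiratory chain genes were higher (median 0.25), where 3.78% of all genes were higher and 4.66% lower. That smaller comparison kept only PTP-r libraries 8 and 11, against the 6 vehicle libraries. It is not free of muscle, as 24 of 26 muscle markers in library 8 were above the highest vehicle value. Nor is it free of thermogenic signal, as 7 of 16 thermogenic markers in library 8 and 3 in library 11 were above the highest vehicle value. In it 4 matrix genes (median -0.26), 5 chemokine genes (median -0.62) and 7 MHC genes (median -0.17) were lower.

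**Figure D3:**
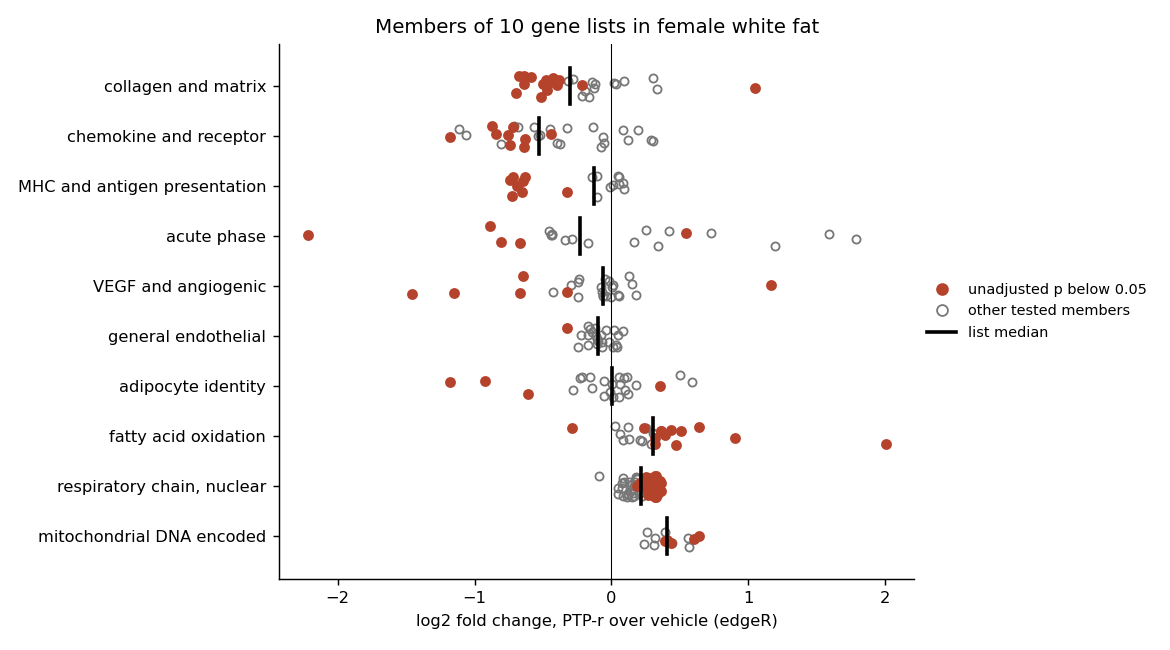
Log2 fold change, PTP-r over vehicle, of each tested member of 10 gene lists in female white fat; filled dots have an unadjusted edgeR p under 0.05 and the bar is the list median. The medians run from -0.53 for chemokines and receptors to 0.40 for genes on mitochondrial DNA.

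Genes of the prohibitin target overlapped between the groups. Phb was at 76.3 to 113 CPM in PTP-r libraries and 91.6 to 114 CPM in vehicle libraries (log2 -0.03, SE 0.08, edgeR adjusted p = 0.889, DESeq2 adjusted p = 0.898). Phb2 was at 120.2 to 149 CPM against 105 to 144 CPM (log2 0.18, SE 0.08, edgeR adjusted p = 0.244, DESeq2 adjusted p = 0.180). Of 18 genes of the prohibitin and inner membrane quality control list, 4 were higher and 0 lower at an unadjusted p under 0.05 (median 0.08). Without PTP-r libraries 1 and 4, where 5.98% of all genes were higher, 0 of these genes were. Anxa2, annexin A2, a membrane-binding protein described as a partner of prohibitin on fat endothelium, was at 448 to 961 CPM against 776 to 1557 CPM (log2 -0.53, SE 0.17, edgeR adjusted p = 0.140, DESeq2 adjusted p = 0.0556). Cd36, the fatty acid transporter described as another partner, was at 4130 ± 650 CPM against 4599 ± 637 CPM (edgeR adjusted p = 0.576, DESeq2 adjusted p = 0.550).

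Among 24 cholesterol synthesis and uptake genes, 8 were lower and 0 higher (median -0.24). Without PTP-r libraries 1 and 4, where 5.97% of all genes were lower, 1 member was lower. Without libraries 4 and 9, where 845 of 17947 genes were lower, 0 members were. Without libraries 1, 4, 5 and 9 the median turned to 0.04, with 1 member higher and 1 lower. Over all genes, 3.78% were higher and 4.66% lower in that last setting. Of 19 core clock and output genes, 5 were higher and 1 lower (over all genes 7.99% and 8.39%). Hlf, a clock-driven transcription factor, was at 12.8 to 22.3 CPM against 6.86 to 16.2 CPM (log2 0.80, SE 0.23, edgeR adjusted p = 0.0964, DESeq2 adjusted p = 0.0241), and Nr1d1, a repressor of the core clock, was at 199.7 to 372 CPM against 132 to 243 CPM. The labels give no time of day of collection.

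White fat of males on the same diet and treatment (6 PTP-r, 5 vehicle libraries) was in the same fit. At an adjusted p of 0.05, 0 of 17765 genes differed between the sexes in their response (0%), and 1520 did at an unadjusted p under 0.05; DESeq2 called 79. The smallest p belonged to Cyp27a1, a sterol hydroxylase, with log2 -0.22 (SE 0.09) in females and 0.49 (SE 0.09) in males (edgeR adjusted p of the difference = 0.113). Next came Ckm, Stk38l, Tnnt3 and Tcap, of which Ckm, Tnnt3 and Tcap are skeletal muscle genes. Female and male log2 fold changes were 7.49 and -7.04 for Ckm, 4.84 and -3.41 for Tnnt3 and 6.085 and -2.58 for Tcap. In males, mean Ckm was 5.87 CPM in vehicle libraries and 0.0374 CPM in PTP-r libraries. For each of these muscle genes the SD of the male vehicle libraries exceeded their mean. What muscle tissue in either sex adds to these differences was not tested. Saa3 was at log2 -1.23 (SE 0.41) in males, Apln at -0.46 (SE 0.20), Lep at -0.94 (SE 0.31) and Cxcr4 at 0.06 (SE 0.21). Gpx3 was higher by 1.04 (SE 0.20, edgeR adjusted p = 0.0216) and Pcdh12 lower at -0.75 (SE 0.13, edgeR adjusted p = 0.0131) in males. Collagens Col4a2 (-0.70, SE 0.15) and Col6a2 (-0.67, SE 0.18) were lower in males by log2 amounts near those in females. None of these genes had an adjusted p of the difference under 0.05; for Cxcr4 it was 0.219.

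Female liver (6 PTP-r, 6 vehicle libraries) was set against female white fat in 1 fit of all 46 libraries. The response differed between the organs in 16 of 19135 genes (0.0836%), 8 more positive in fat and 8 more negative. Saa3 had the smallest adjusted p. In that fit it was at log2 -2.21 in fat and 2.12 in liver, and its liver means were 15.6 CPM in PTP-r libraries and 3.53 CPM in vehicle libraries (difference -4.33, SE 0.52, edgeR adjusted p = 4.085e-06). Orm2 was at -0.89 in fat and 1.65 in liver (edgeR adjusted p of the difference = 0.0180), where its means were 40.8 CPM and 12.9 CPM. Serpina3n was at -0.66 and 0.22 (edgeR adjusted p of the difference = 0.0277). Cxcr4 (-1.17 and 0.48, edgeR adjusted p of the difference = 0.0320) and Anxa3, an annexin (-0.51 and 0.18, edgeR adjusted p of the difference = 0.0393), took the same signs. Cxcl2, a neutrophil chemokine, did too, at low levels in fat (mean levels 0.140 and 0.306 CPM; edgeR adjusted p of the difference = 0.0320). Ms4a4a, a membrane protein of macrophages, was at -0.46 in fat and 2.22 in liver. Jam2, a junction protein of endothelium, was at 0.09 in fat and -0.85 in liver (edgeR adjusted p of the difference = 0.00430), and Meis2, a homeobox transcription factor, at 0.83 and -0.47 (edgeR adjusted p of the difference = 0.0180). A differing response is not a change in both organs. In liver alone, the edgeR adjusted p in this fit was 0.812 for Serpina3n, 0.795 for Cxcr4, 0.832 for Anxa3 and 0.459 for Meis2. For the others it was at most 0.0220. In fat alone it was 0.730 for Jam2, 0.444 for Ms4a4a, 0.243 for Cxcl2 and 0.192 for Orm2. For the others it was at most 0.00517, though no gene passed in the main fit.

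These calls depended on the libraries in different degrees. Without PTP-r fat libraries 1 and 5, 1 and 4, 4 and 9, or all 4 of them, the difference in Saa3 ranged from -4.63 to -4.26 (highest edgeR adjusted p 0.00117) and that in Jam2 from 0.83 to 1.02 (highest edgeR adjusted p 0.0318). The Jam2 difference lay mostly in liver (0.09 in fat, -0.85 in liver), so leaving out fat libraries is a weak check of it. The other 7 genes kept the sign of their difference but lost the call in 1 or more of these 4 settings. Orm2 lost it in 3, with edgeR adjusted p of 0.0643 without libraries 1 and 4, 0.0800 without 4 and 9 and 0.193 without all 4. Cxcr4, Cxcl2 and Serpina3n lost it in the same 3 settings, with highest edgeR adjusted p of 0.108, 0.108 and 0.329. Meis2 lost it without libraries 4 and 9, which are high in smooth muscle markers (difference 0.87, edgeR adjusted p = 0.108), and without all 4 (0.78, edgeR adjusted p = 0.185). Anxa3 lost it in those 2 settings too, with a highest edgeR adjusted p of 0.108, and Ms4a4a without libraries 4 and 9 alone (-2.67, edgeR adjusted p = 0.0622). Each of the 24 female libraries of both organs was also left out in turn. The calls of Saa3, Jam2, Meis2 and Orm2 held in all 24 cases, and those of Serpina3n, Ms4a4a, Cxcr4, Cxcl2 and Anxa3 were lost in 1, 3, 4, 6 and 12 of them. Serpina3n lost it without fat vehicle library 12, Ms4a4a without liver vehicle libraries 2 or 6 or PTP-r library 5, and Cxcr4 without liver vehicle libraries 2, 6 or 7 or PTP-r library 1, with edgeR adjusted p of at most 0.0605 in these cases. The highest was 0.0987 for Cxcl2, without fat vehicle library 6, and 0.0752 for Anxa3, without fat vehicle library 12. The part of the markers in these results was not tested further.

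**Figure D4:**
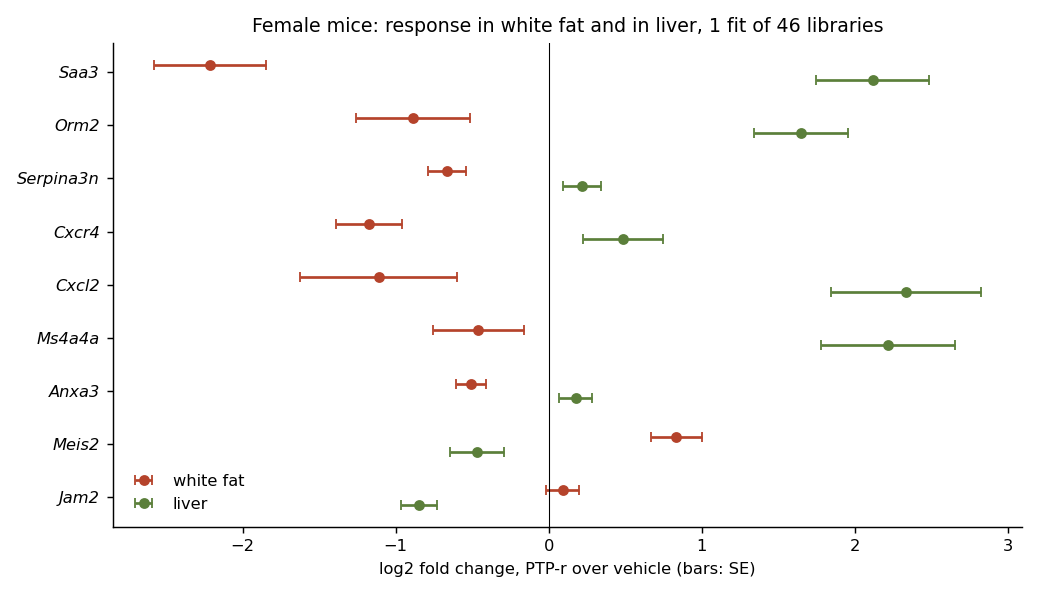
Log2 fold change, PTP-r over vehicle, with its SE (bars) for 9 genes in female white fat and female liver from 1 edgeR fit of 46 libraries. Saa3, Orm2, Serpina3n, Cxcr4, Cxcl2, Ms4a4a and Anxa3 lie below 0 in fat and above 0 in liver, while Meis2 and Jam2 lie above 0 in fat and below 0 in liver.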

How the data were processed

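PolyA RNA was extracted with the RNeasy Plus Universal kit, per the labels' protocols. The authors deposited counts, that is whole reads per gene. The tools and build listed, per the submitters' processing notes, are STAR 2.4.0i, HTSeq and mm10, without their roles; annotation release, library kit and filters are not stated there. Column 4 of the deposited counts was used because it held 96.1% to 96.5% of both stranded columns in these 12 libraries. The totals that name no gene, which include reads mapping to several places, were 20.3% to 27.3% of a library and stayed out of library sizes, so genes with near-identical copies are measured less surely. Of 55487 identifiers 55227 matched GENCODE M21 (GRCm38, the same build as mm10), from which symbols and coordinates were taken.

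The 4 groups of all 23 white fat libraries entered 1 edgeR model (version 4.0.16, R 4.3.3) with TMM scaling and the 2-sided quasi-likelihood F test (minimum count 10 and total 15, leaving 17765 genes), so that all groups share 1 estimate of the spread. The organ comparison used all 46 libraries. An adjusted p under 0.05 passed. DESeq2 1.42.0 and limma 3.58.1 were alternatives, and edgeR was tested on simulated data. Fold changes are log2, PTP-r over vehicle. A list count uses unadjusted p, read against the share over all genes. Each library's depth limits the precision of genes of few reads. Duplicates were looked for in 30 within-group pairs; the lowest chi-square divided by its degrees of freedom was 17.6, far above sampling noise.

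The members, 53 gene lists and tests were chosen with earlier results of these data known. The text names the leading 5 genes by p on either side with a mean of at least 1 CPM, genes of a fixed list, members of the gene lists, and the 5 genes with the smallest p for each difference in response. Adamts5, Hspg2, Pcdh12, Bcl6b, Gpx3, Acacb, and in the organ comparison Serpina3n, Cxcl2, Cxcr4 and Anxa3, and those list members whose p is not among the smallest were chosen after their values were seen.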

Additional observations from a re-analysis of the deposited data

Results flagged for a closer look

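Some values lay far from the other 5 libraries of their group by Dixon's test, which chance passes in about 1 of 20 groups. Among marker sums, these were skeletal muscle in PTP-r library 1 (1908 CPM), and in PTP-r library 9 the ovary, oviduct and uterus sum (540.2 CPM), the neutrophil sum (84.67 CPM) and the lymphatic endothelial sum (281.5 CPM). In the vehicle group they were the ovary sum (24.17 CPM) and the pericyte and smooth muscle sum (3273 CPM) of library 10 and the neutrophil sum of library 7 (80.28 CPM).

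Among genes, those flagged were Lcn2, an acute phase protein of neutrophils and epithelium, in PTP-r library 9 (38.01 CPM) and Trem2 in PTP-r library 11 (15.71 CPM). In the vehicle group they were Txlnb in library 7 (1.231 CPM), Slc26a10 in library 12 (6.848 CPM), and in library 6 Ucp1 (0.2681 CPM) and the genes of lipid-laden macrophages Gpnmb (175.8 CPM) and Mmp12 (53.57 CPM). The flags do not cover every gene named above. Cyp11a1 in PTP-r library 9 (205.5 CPM, next highest PTP-r library 0.618 CPM) is not among them. Nor is Ckm in PTP-r library 1 (144 CPM, next highest PTP-r library 40.2 CPM).

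Between the organs of females, the responses differed, by the test of the difference, in Saa3 (-4.33, fat minus liver, log2), Orm2 (-2.53), Ms4a4a (-2.68), Cxcl2 (-3.45), Cxcr4 (-1.66), Serpina3n (-0.88), Anxa3 (-0.68), Meis2 (1.302) and Jam2 (0.94). Of these, Saa3 and Jam2 passed in each case where pairs or all of PTP-r fat libraries 1, 4, 5 and 9 were left out. For Jam2, at 0.09 in fat and -0.85 in liver, leaving out fat libraries is a weak check.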

How the results depend on the processing

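The count of genes past the adjusted p in female white fat was 0 by edgeR and moved with the tool and the libraries. It was 594 with DESeq2, 371 with voom, 20 with a filter of 1 CPM in 5 libraries, 3 with the 12 female libraries alone, 539 in the fit of all 46 libraries (chosen after seeing the data), 100 without PTP-r libraries 1 and 5, and 13 without PTP-r libraries 1, 4, 5 and 9 (after seeing the data). It was also 0 with DESeq2 size factors, no filter, unstranded counts, title number or muscle markers as a term, a robust fit, and without libraries 1 and 4 or 4 and 9. Leaving out 1 library gave 0 to 194 calls, with 194 without PTP-r library 8, 67 without 11, 21 without 5, 7 without vehicle library 3, 1 each without PTP-r 9 and vehicle 12, and 0 otherwise. The cause was not tested. The difference between the sexes went from 0 to 79 with DESeq2, 17 without PTP-r libraries 4 and 9, 22 without 1, 4, 5 and 9, and 0 to 13 when 1 library was left out. The difference between the organs went from 16 to 186 with DESeq2, 62 with voom, 7 without a filter, 148 without PTP-r libraries 1 and 5, 8 without 1 and 4, 5 without 4 and 9, 29 without 1, 4, 5 and 9, and 8 to 117 when 1 library was left out (117 without liver PTP-r library 11, 103 without fat PTP-r library 11).

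Description numbers were tried as a replicate block. The 4 female pairs that share a number had correlations of -0.042 to 0.173, within the range of the other pairs (-0.402 to 0.334). With so few pairs, this cannot decide whether the numbers link samples. The replicate block gave 4 calls in females, 0 for the sexes and 9 for the organs, and title numbers as a replicate block across organs gave 4; of 12 fat libraries, 2 matched best the liver library of their own number.

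The log2 fold change of Cyp11a1, 6.06 in all libraries, was -0.02 with voom, -0.45 to 6.34 when 1 library was left out (-0.45 without PTP-r library 9), -0.47 without libraries 4 and 9 and -0.56 without 1, 4, 5 and 9, and that of Elovl3, 5.15, was -0.32 without those 4. All other named genes of female fat kept their sign in these alternatives wherever their unadjusted p in all libraries was under 0.05. Levels under 1 CPM, as for Cxcl2 in both organs of females and for Cxcr4 and Ms4a4a in female liver, rest on few reads. They limit what can be said of those genes.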
